A study of Mus musculus and Macaca nemestrina with 20 samples.

Results

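The genotype difference within batch 2 of the mouse experiment was described across all genes. It set 3 dorsal root ganglion (DRG) libraries labelled ADAM17 KO (numbers 5, 6 and 7) against 4 control libraries labelled ADAM17 flox (numbers 4 to 7), which are 7 of the 20 libraries of the series and 7 of its 14 mouse libraries. Members were taken by the batch, genotype and number in the labels. Bulk RNA of fresh frozen ganglia was sequenced. A flox allele carries recombination sites around the targeted sequence, and the labels give no Cre driver, deleted exon, strain, age, sex, treatment or number of animals per library for either group. The groups are therefore known as models only by these genotype labels, and p-values measure the spread between libraries, which may be technical.

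The DRG holds the cell bodies of the sensory neurons that serve touch, temperature, pain and itch, together with satellite glia, Schwann cells, fibroblasts, vessels and resident immune cells. ADAM17 is a membrane protease that releases cytokines, cytokine receptors and ligands of the EGF receptor from the cell surface, and loss of this shedding in skin is known to disturb the epidermal barrier. Natriuretic peptide B, encoded by Nppb and named in the title of the series, is a transmitter of a class of itch neurons (NP3 pruriceptors) that also carry receptors for interleukin 31, oncostatin M and leukotrienes.

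Totals ran from 27868213 to 30767253 estimated counts in knockout and from 30907612 to 35989743 in flox libraries. The mitochondrial share of counts was lower in each knockout library (0.734% to 1.03%) than in any flox library (1.4% to 1.76%). On the first principal component of log2(TPM + 1) over 13450 genes (50.8% of the variance) the genotypes separated. TPM is scaled for transcript length and library size. On the second component (17.6%) knockout library 5 stood apart at 40.7, with knockout libraries 6 and 7 at -19.8 and -23.2. Knockout library 5 also held 2014 TPM of Ptgds, a prostaglandin synthase of meninges and glia, against 13193 to 30558 TPM in the other 6 libraries. The Y-linked genes Ddx3y and Eif2s3y summed to 97.3 and 113 CPM (counts scaled to library size) in knockout libraries 6 and 7 and to at most 0.338 in the other 5. No flox library of batch 2 reached such levels, and the labels give no sex. Y-linked expression, and sex where it follows it, is therefore partly confounded with genotype, and their parts cannot be fully told apart. With a term for Y-linked expression in the fit, the genotype difference rests on knockout library 5 against flox, and that of Nppb was 1.30 (log2). Because of this split of the knockout libraries, counts for libraries 6 and 7 only and for library 5 alone are given beside the list counts below where stated. The fit of library 5 alone assumes that a lone knockout library varies like the flox libraries. The DRG markers Tubb3 and Isl1 were present in every library, at 1737 to 2042 and 50.5 to 70.9 TPM in flox ganglia.

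Adam17 itself (chr12:21323509-21373632, minus strand on GRCm38) stood at 7.76, 7.32 and 9.18 TPM in knockout libraries 5, 6 and 7 and at 9.51, 5.75, 8.16 and 8.47 TPM in flox libraries 4 to 7. The groups overlapped, with the highest and the lowest value both in flox. The log2 fold change was 0.09 ± 0.23 (SE), with an adjusted p of 0.833 in edgeR's quasi-likelihood test and p = 0.971 in an exact two-sided permutation test. A gene-level value includes transcripts that lack a deleted exon and transcripts of cells in which nothing was deleted, so it does not check the genotype. Knockout below means the label.

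Within the batch, genes of NP3 itch neurons and peptidergic neurons, of injured axons, of the acute-phase response and of neutrophils were higher in knockout ganglia. Collagens, basement membrane, myelin, mitochondrially encoded transcripts and 3 of 6 genes of C-fibre touch neurons were lower. edgeR's quasi-likelihood test with Benjamini-Hochberg adjustment called 2085 of 15780 genes (13.2%) at an adjusted p under 0.05. Of these, 1140 were higher (7.22% of the genes tested) and 945 lower (5.99%), and 1137 differed by more than 2-fold, 602 higher and 535 lower. With limma on log2(TPM + 1) the split turned, to 847 higher and 1410 lower, and the median of all genes moved from -0.02 to -0.11. In TPM, the groups did not overlap for 1354 genes higher in knockout (8.58%) and 2933 lower (18.6%). Of the 1140 higher calls, 849 were also called without knockout library 5 and 454 with it alone. The same counts for the 945 lower calls were 622 and 212. The number of calls fell by over 1.5 times without knockout library 6 (1227), knockout library 7 (1066), flox library 4 (1296) or flox library 7 (1036), while DESeq2 called 3316. Of the 186 called genes named here, 112 were called without each of the 7 libraries in turn. The calls lost ranged from 21 without flox library 5 to 62 without knockout library 7. Kcnk4, H2-DMa and Plekhb1 were lost without any 1 library, and Axl, Gadd45a, Hspa5, Jak3, Npr2, Ptpn11, Scd1, Tef, Trpc5 and the genes Asic2, Atf4, Cysltr2, Dnaja1, H2-Ab1, Il1r2, Jund, Kcnt1, Myh2, Npy, Rxrb, S1pr1, Socs7, Tacr1, Tenm2, Trpa1, Trpc6, Trpv1 and Tyrobp in 5 or 6 of the 7 cases.

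**Figure D1:**
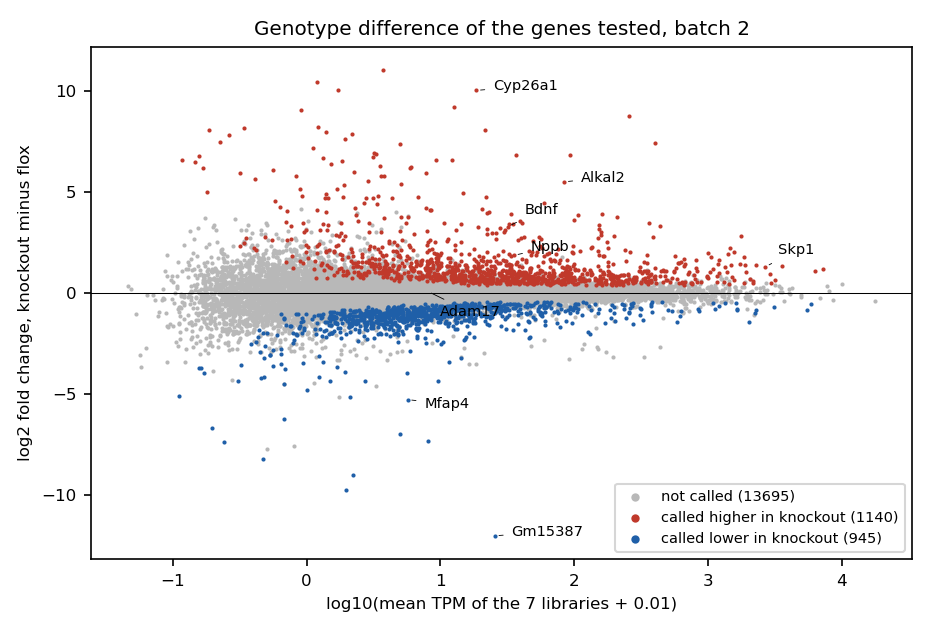
Each point is 1 of the 15780 genes tested, with its log2 fold change (knockout minus flox) against its mean TPM on a log10 axis; red and blue mark the 1140 higher and 945 lower calls. Alkal2, Bdnf and Cyp26a1 lie far above zero at moderate to high levels, Nppb lies among the higher calls, and Adam17 lies near zero.

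The question behind the comparison, from the title of the series, is whether Nppb is raised. Nppb (chr4:147985788-147987205, plus strand) stood at 45.4, 54.5 and 77.4 TPM in knockout and at 24.2, 14.2, 14.3 and 18.8 TPM in flox libraries. The groups did not overlap, with the lowest knockout value in library 5. The log2 fold change was 1.87 ± 0.30 (3.65-fold), with an adjusted p of 0.00415 in edgeR. On log2(TPM + 1) the difference was 1.67, with p = 0.0571 by exact permutation (two-sided), the smallest that the 35 splits of 3 against 4 allow. With knockout library 5 as the only knockout, the log2 fold change was 1.30 and the adjusted p was 0.081, which is outside the threshold. Without it they were 2.08 and 0.0012.

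Of the 7 tested NP3 pruriceptor genes, 5 were called higher and none lower, with a median log2 fold change of 1.48 against -0.02 over all genes tested. The number called was 4 without knockout library 5 and 4 with it alone. Nts, which encodes neurotensin, stood at 41.2, 62.7 and 44.8 TPM in knockout and 7.33, 7.24, 10.02 and 10.003 TPM in flox libraries, a log2 fold change of 2.66 ± 0.23. Il31ra, the receptor chain for interleukin 31, was at 30.2, 10.1 and 8.07 TPM against 4.01, 3.56, 4.33 and 6.6 TPM. All 3 knockout values exceeded the flox values for both genes, but Il31ra was highest in library 5 by a wide margin while Nts was lowest there. Osmr, the oncostatin M receptor chain that pairs with Il31ra, stood at 17.8, 8.64 and 7.64 TPM against 4.39, 3.88, 5.61 and 5.91 TPM. Cysltr2, a leukotriene receptor, stood at 7.24, 2.92 and 3.38 TPM against 0.948, 1.78, 1.59 and 2.57 TPM, and its call was lost without knockout library 5 (adjusted p = 0.141). The adjusted p-values of Nts, Il31ra, Osmr and Cysltr2 were 0.0002, 0.0112, 0.0161 and 0.0343 in edgeR. The 7 NP3 genes summed to 152 to 159 TPM in knockout and 46.9 to 56.7 TPM in flox libraries.

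**Figure D2:**
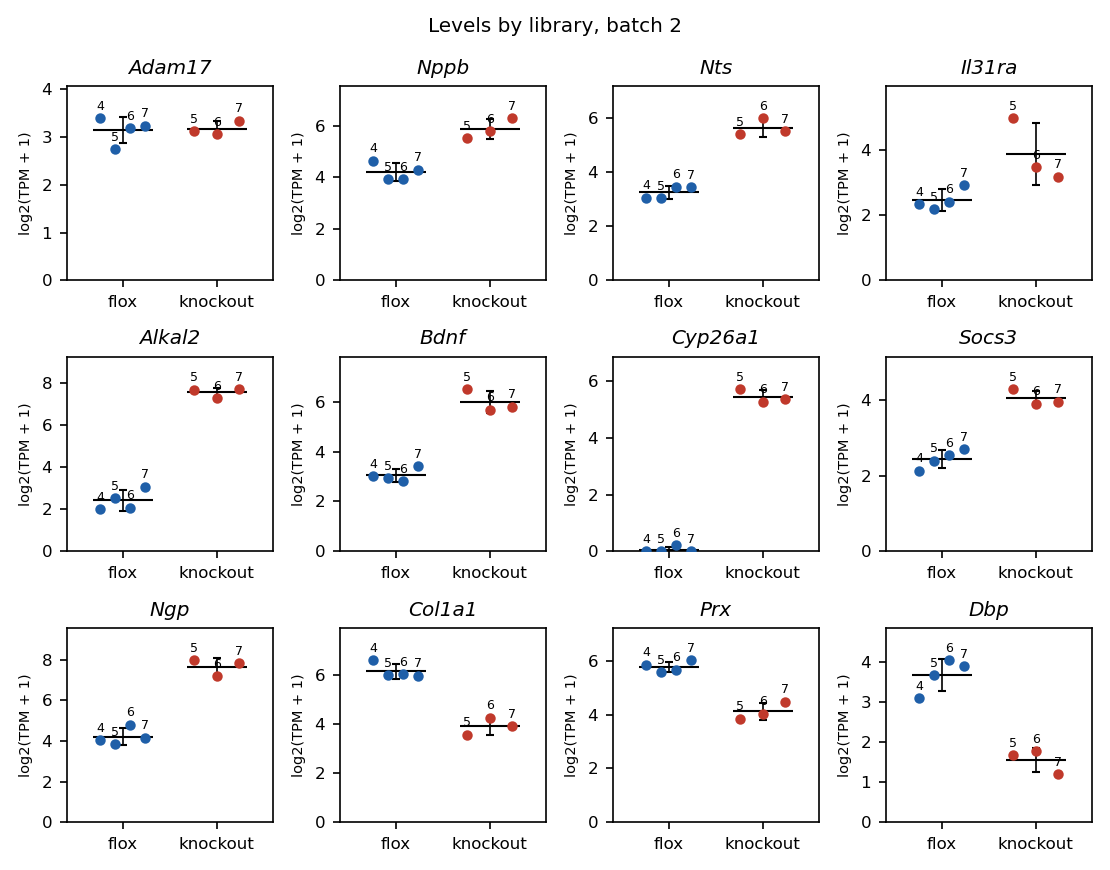
Points give log2(TPM + 1) of 12 genes in the 4 flox (blue) and 3 knockout (red) libraries, numbered as in the labels; bars are means and whiskers SD (n = 4 and n = 3). Adam17 overlaps between the groups, Nppb to Ngp lie higher in all 3 knockout libraries, and Col1a1, Prx and Dbp lie lower in all 3.

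The other sensory neuron classes did not move as one. Of 10 peptidergic nociceptor genes, 5 were called higher and none lower (median 0.73; 3 without knockout library 5 and 4 with it alone). Calca, the precursor of calcitonin gene-related peptide, stood at 1636, 1492 and 1732 TPM in knockout and 937, 835, 812 and 1013 TPM in flox libraries. Tac1, the substance P precursor, was at 233 to 288 TPM against 137 to 197 TPM. Both rose without overlap, by 0.98 ± 0.14 and 0.80 ± 0.13. The heat and irritant channels Trpv1 (56, 26.6 and 29.6 TPM) and Trpa1 (61.2, 17.2 and 21.7 TPM) were called higher as well, with knockout library 5 far above the other 2 knockout libraries. Without it neither was called, at adjusted p-values of 0.0784 and 0.0881 in edgeR, and the groups overlapped for both genes.

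Genes of the NP1 and NP2 itch neurons went the other way: 4 of 12 were lower and none higher (median -0.44; 5 without knockout library 5 and 1 with it alone). Among these were Cd55, a complement regulator on the cell surface (-0.98 ± 0.14), the lysophosphatidic acid receptor Lpar3 (-1.59 ± 0.25) and the angiotensin receptor Agtr1a (-1.53 ± 0.33). Lpar3 stood at 12.8, 6.99 and 10.3 TPM in knockout and at 30.2, 48.7, 23.2 and 28.9 TPM in flox libraries, so the highest knockout value lay below the lowest flox value. Of 6 genes of the C-fibre low-threshold mechanoreceptors, which respond to gentle touch, 3 were lower and 1 higher. The median of these 6 was -1.11, and it was -1.34 without knockout library 5, -0.75 with it alone and -0.08 in batch 1. Th, tyrosine hydroxylase and the marker of these neurons, stood at 80.6, 24.9 and 34.3 TPM against 155, 255, 159 and 179 TPM, a log2 fold change of -1.92 ± 0.31. The touch channel Piezo2 and the neurturin receptor Gfra2 were lower, with log2 fold changes of -1.10 ± 0.22 and -1.13 ± 0.26, while the cadherin Cdh9 rose by 2.36 ± 0.34. Of 14 genes of large-diameter touch and proprioceptive neurons, Ntrk3, the neurotrophin 3 receptor, and the calcium-binding protein Necab2 were lower (-1.06 ± 0.18 and -1.41 ± 0.27) and none was higher. These 2 lower calls of 14 stand against 5.99% of all genes called lower and 13.2% called in either direction. The list median was -0.21 here and 0.31 in batch 1. Its genes summed to 1018 to 1280 TPM in knockout and 1135 to 1294 TPM in flox libraries, which overlap. Of 12 pan-sensory neuron genes, Isl1 and Tubb3 were higher (1.07 ± 0.15 and 0.58 ± 0.11) and none was lower. In bulk tissue, fewer cells of a type and less RNA per cell cannot be told apart.

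Among 18 tested neuropeptide genes 7 were higher and none lower (median 0.70; 7 without knockout library 5 and 4 with it alone). Besides Nppb, Nts, Calca and Tac1 these were Cartpt, encoding the CART peptide, and Gal and Npy, which encode galanin and neuropeptide Y. Cartpt stood at 330.2, 93 and 263 TPM in knockout and 11.8, 15.3, 19.3 and 20.6 TPM in flox libraries and rose by 3.88 ± 0.36. Gal and Npy overlapped between the groups and rose by 0.59 ± 0.14 and 1.73 ± 0.48. Of 15 opioid, cannabinoid and neuropeptide receptors, 4 were higher: Npy1r (2.54 ± 0.31), Npy2r (1.39 ± 0.33), the cannabinoid receptor Cnr1 (1.09 ± 0.27) and the substance P receptor Tacr1 (2.50 ± 0.68). The number called was 2 without knockout library 5 and 3 with it alone. Without knockout library 5, Npy2r, Cnr1 and Tacr1 had adjusted p-values of 0.0635, 0.0673 and 0.24 in edgeR. Npy1r stood at 25.1, 9.78 and 10.4 TPM against 2.37, 2.62, 3.7 and 2.21 TPM. Of 23 receptors for itch and inflammatory mediators, the serotonin receptors Htr1a (2.10 ± 0.30) and Htr3a (0.72 ± 0.14), the sphingosine phosphate receptor S1pr1 (0.78 ± 0.18) and Cysltr2 were higher and none was lower. In the natriuretic peptide family, Npr2, the receptor for C-type natriuretic peptide, was lower (-0.81 ± 0.21, adjusted p = 0.029), and it was not called without knockout library 5 or with it alone.

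Of 77 tested ion channel genes in 4 lists, 13 were called (16.9%), 3 higher and 10 lower, against 13.2% of all genes. None of 14 sodium channel genes was called in edgeR; 3 had an unadjusted p under 0.05, DESeq2 called 2 and limma-voom 1, and 2 were lower in edgeR without knockout library 5. Of 28 potassium channel genes, 4 were lower, among them Kcnc4 (-2.13 ± 0.32), Kcnd3 (-1.66 ± 0.35) and the sodium-activated channel Kcnt1 (-0.99 ± 0.27), and the background potassium channel Kcnk4 was higher (1.07 ± 0.31). The number called lower was 5 without knockout library 5 and 0 with it alone. Kcnc4 stood at 3.32, 1.74 and 1.5 TPM in knockout and 11.9, 11.2, 5.99 and 11.5 TPM in flox libraries, without overlap. Of 15 calcium channel genes only the T-type channel Cacna1h was called, with a log2 fold change of -1.98 ± 0.48; the number called was 2 without knockout library 5 and 0 with it alone. Of 20 TRP, Piezo, ASIC and P2X channels, 5 were lower, among them Trpc5, Trpc6, Piezo2 and Asic2, and Trpv1 and Trpa1 were higher. The number called lower was 3 without knockout library 5 and 0 with it alone.

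Genes of axon injury and regrowth were higher in 9 of 20 cases and lower in none (median 0.79; 8 without knockout library 5 and 3 with it alone). Bdnf, the neurotrophin that binds TrkB, stood at 88.9, 50.4 and 54.8 TPM in knockout and 7.15, 6.57, 6.1 and 9.61 TPM in flox libraries and rose by 3.29 ± 0.20. Sox11, a transcription factor of axon regrowth, stood at 121, 42.7 and 52.1 TPM against 4.63, 9.67, 7.69 and 7.06 TPM. Atf3, a classic marker of axotomised neurons, stood at 8.89, 7.16 and 8.63 TPM against 2.18, 1.42, 3.55 and 1.43 TPM, and rose by 2.03 ± 0.35. None of these groups overlapped, and for Bdnf, Sox11 and Atf3 knockout library 5 was the highest. The others were Sprr1a (185 counts in knockout and 3 in flox, a ratio of 92.1 with a 95% counting interval of 31.0 to 450.5), Jun (1.15 ± 0.19), the TWEAK receptor Tnfrsf12a (0.87 ± 0.18), Gadd45a (0.70 ± 0.18), Gal and Npy. Exact binomial intervals such as this cover counting error only.

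Alkal2, a ligand of the receptor tyrosine kinase ALK, had the second lowest p-value of all genes. It stood at 207, 157 and 209 TPM in knockout and at 3.04, 4.79, 3.22 and 7.5 TPM in flox libraries, a log2 fold change of 5.50 ± 0.29 with an adjusted p of 2.15e-05 in edgeR. Of 16 tested neurotrophic factors and receptors, Alkal2, Bdnf and Gfra3, the artemin receptor (1.57 ± 0.19), were higher, and Ntrk3 and Gfra2 lower. The ALK family receptors Alk and Ltk did not pass the filter on low counts. Of 17 immediate early genes Jun and Junb (1.14 ± 0.24) were higher and Jund lower (-1.28 ± 0.31). Atf4 and Hspa5 were higher and Atf5 lower among 15 genes of endoplasmic reticulum and amino acid stress. Among 13 heat shock genes, Dnajb1 (0.98 ± 0.17) and Dnaja1 (0.57 ± 0.13) were higher. Over these last 3 lists 8 of 45 genes were called (17.8%), against 13.2% of all genes. The numbers called higher and lower with knockout library 5 alone were 1 and 1, 0 and 0, and 1 and 0.

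STAT3 carries signals from interleukin 6 family receptors to the nucleus, where it binds paired half-sites of the form TTCNNNGAA. Of 25 genes known as STAT3 targets or acute-phase genes, 10 were called higher and none lower (median 0.81; 11 without knockout library 5 and 11 with it alone). The promoters of 2 genes that the comparison turns on are printed here, the 250 bases before the RefSeq start on GRCm38.p6, with the STAT half-site pair in capitals. The first is Socs3, the feedback inhibitor of STAT3 (chr11:117969367-117969616, minus strand), with 1 match that begins 154 bases before the start. The second is Nppb (chr4:147985650-147985899, plus strand), in which these letters do not occur.
Socs3: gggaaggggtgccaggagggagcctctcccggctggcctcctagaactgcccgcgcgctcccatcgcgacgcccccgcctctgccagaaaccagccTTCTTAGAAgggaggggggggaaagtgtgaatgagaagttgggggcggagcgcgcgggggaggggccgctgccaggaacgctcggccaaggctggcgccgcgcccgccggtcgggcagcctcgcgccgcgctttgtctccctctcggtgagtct
Nppb: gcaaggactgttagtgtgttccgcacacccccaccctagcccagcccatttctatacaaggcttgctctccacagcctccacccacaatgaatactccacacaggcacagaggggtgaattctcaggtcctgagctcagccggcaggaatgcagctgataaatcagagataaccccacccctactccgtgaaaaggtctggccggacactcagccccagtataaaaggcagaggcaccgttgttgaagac
Over the 22 listed genes found in the promoter table, 2 of 26 promoters held the pattern on either strand (it reads the same on both), namely those of Socs3 and Steap4, against 7.02% of all 32851 promoters of the same length. A match is a description of letters and not of binding.

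Socs3 stood at 18.3, 13.9 and 14.5 TPM in knockout and 3.37, 4.24, 4.79 and 5.46 TPM in flox libraries, without overlap and with little spread in either group. Its log2 fold change was 1.91 ± 0.18, with an adjusted p of 0.000317 in edgeR. Steap4, a metalloreductase, was not called (0.58 ± 0.32, adjusted p = 0.255). The protease inhibitor Serpina3n stood at 512, 299 and 351 TPM against 56.3, 70.2, 44.6 and 65.3 TPM, and belongs to a cluster of similar genes among which reads can be shared. Lcn2, the iron-siderophore binder lipocalin 2, was at 40.2, 39.98 and 62.7 TPM against 2.79, 2.87, 4.4 and 3.49 TPM. Tifa, an adaptor of NF-kappaB signalling, the haemoglobin binder Hp, Lrg1 and the serum amyloid Saa3 rose by 3.13 ± 0.22, 3.44 ± 0.27, 3.21 ± 0.26 and 4.71 ± 0.80. Neutrophils also make Lcn2 and Hp, and the 21 neutrophil genes had a median of 3.55 in the same libraries; their part in these 2 rises was not tested. The interleukin 1 receptor Il1r1, the complement component C3 and Osmr complete the 10.

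Cytokine receptors and JAK kinases were mixed, with 8 of 30 higher, 1 lower and a median of 0.07 (7 without knockout library 5 and 8 with it alone for the higher calls). Il4ra, the receptor chain shared by interleukins 4 and 13, stood at 45.7, 27.6 and 21.5 TPM in knockout and at 6.25, 9.83, 5.38 and 8.28 TPM in flox libraries. Its partner Il13ra1 stood at 17.1, 13.6 and 17.2 TPM against 3.21, 5.06, 5.51 and 4.52 TPM. Both rose without overlap, by 2.19 ± 0.22 and 1.93 ± 0.19. Il2rg, the common gamma chain, rose by 1.63 ± 0.19, and the kinases Jak1 and Jak3 by 0.72 ± 0.16 and 1.58 ± 0.42. The gene that was lower was Il6st, the gp130 chain that transmits the signals of interleukin 6 and oncostatin M, at 14.2, 12.7 and 11.7 TPM against 14.1, 24.5, 19 and 22.5 TPM and with overlapping groups (-0.72 ± 0.16). Of 21 SOCS, STAT and feedback genes, Socs3, Socs2 (0.90 ± 0.17) and the phosphatase Ptpn1 (0.67 ± 0.14) were higher, and Socs7 (-1.34 ± 0.37) and the phosphatase Ptpn11 (-0.64 ± 0.18) lower.

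Of 88 tested genes in 5 lists on ADAM17, its substrates and the EGF receptor, ERK and Notch pathways, 10 were called (11.4%), against 13.2% of all genes. Of 16 sheddases and regulators, 2 were higher and 2 lower. Adam10, the sheddase most closely related to ADAM17, stood at 99.8, 100.1 and 92.4 TPM in knockout and 47.1, 47.4, 49.99 and 50.6 TPM in flox libraries, about 2-fold apart with a narrow spread, and rose by 1.13 ± 0.12. Adam8, a metalloprotease of leukocytes, rose by 2.10 ± 0.30. Mmp14, a membrane-type matrix metalloprotease, and Timp3, an inhibitor of ADAM17, were lower (-1.06 ± 0.18 and -1.10 ± 0.24). Of 27 known ADAM17 substrates outside the EGF family, the adhesion molecule Vcam1 (1.69 ± 0.26), the phosphatase Ptprz1 (0.80 ± 0.18) and the decoy receptor Il1r2 (3.46 ± 0.98) were among the 4 that were higher, and the receptor kinase Axl was lower (-0.69 ± 0.20). The number of substrates called higher was 2 without knockout library 5 and 2 with it alone. Il1r2 is also a neutrophil gene. None of 14 genes of the EGF receptor family and its shed ligands was called in edgeR, while 5 had an unadjusted p under 0.05, DESeq2 called 2 and limma-voom 0. Egfr itself had a log2 fold change of -1.31 ± 0.39 and an adjusted p of 0.0542, and Nrg1, neuregulin 1, one of 0.81 ± 0.26 and 0.0657. With knockout library 5 alone, 1 of these 14 was called, namely Nrg1. None of 13 ERK feedback genes was called in edgeR, with all libraries, without knockout library 5 or with it alone, while 4 had an unadjusted p under 0.05, DESeq2 called 2 and limma-voom 0. Of 20 Notch pathway genes Mfng, a glycosyltransferase acting on Notch, was higher (1.57 ± 0.34).

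**Figure D3:**
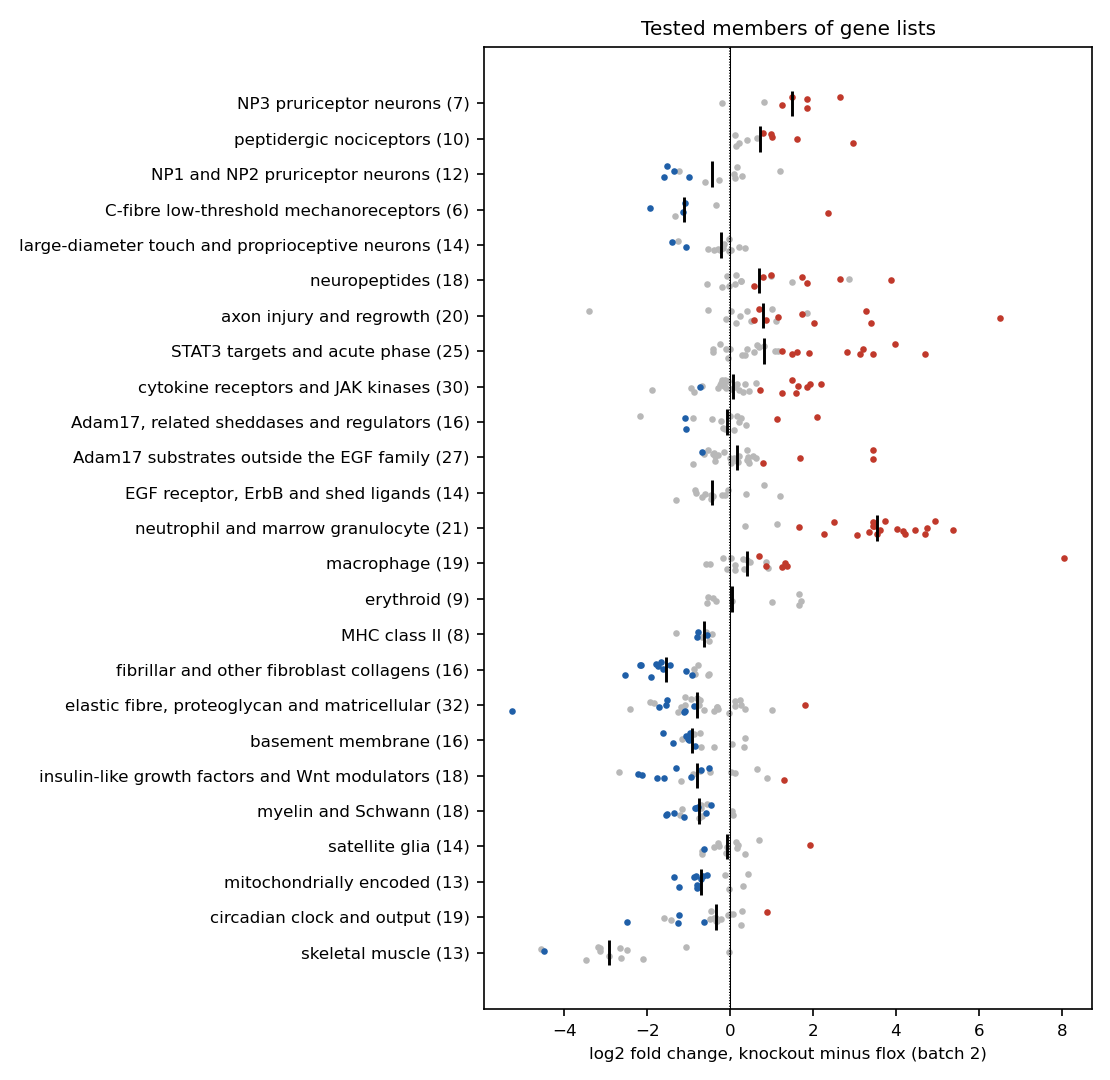
Each point is a tested member of a gene list (number tested in brackets), placed by its log2 fold change; red is called higher, blue called lower and grey not called, and black bars are list medians. The neutrophil list lies farthest to the right and the skeletal muscle list farthest to the left, with 1 muscle gene called.

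Neutrophil and marrow granulocyte genes showed the most uniform rise of the lists described, with 19 of 21 called higher (median 3.55; 17 without knockout library 5 and 16 with it alone). Ngp, a protein of secondary granules, stood at 249, 144 and 227 TPM in knockout and 15.6, 13.2, 26.9 and 17 TPM in flox libraries and rose by 3.62 ± 0.27. Elane, neutrophil elastase of the primary granules, stood at 226, 78.9 and 90.3 TPM against 5.99, 5.63, 9.65 and 3.67 TPM. Mpo, myeloperoxidase, rose by 4.76 ± 0.39, and the calprotectin subunits S100a8 and S100a9 by 3.45 ± 0.35 and 3.74 ± 0.31. The groups did not overlap for 19 of these genes. Erythroid genes, which report blood in the tissue, summed to 2749 to 4530.2 TPM in knockout and 2240.1 to 9026 TPM in flox libraries, with wide overlap. None of 9 was called in edgeR, 1 had an unadjusted p under 0.05, DESeq2 called 1 and limma-voom 0, and 1 was higher with knockout library 5 alone.

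Of 19 macrophage genes 6 were higher: Cd14 (1.38 ± 0.24), Ptprc, Lyz2, Ccr2, Tyrobp and Itgam, which is listed at 0 counts in all 4 flox libraries and was at least 42.8-fold higher against 3 counts over the flox group. These 6 calls of 19 stand against 7.22% of all genes called higher, and the number called was 7 without knockout library 5. The list median was 0.41, and it was 0.52 without knockout library 5, 0.08 with it alone and -0.23 in batch 1. Neutrophil genes rose in the same libraries (median 3.55), and their part in these 6 calls was not tested. The 6 called of 20 lymphocyte and plasma cell genes were mainly immunoglobulin genes. Igkc, the kappa constant region, stood at 349, 439.7 and 239 TPM in knockout and 13, 11.5, 34.3 and 41.5 TPM in flox libraries, and Jchain, which joins secreted antibodies, rose by 3.42 ± 0.31. Ighg2b stood at 33.9, 33.7 and 21.2 TPM against at most 0.110 TPM in flox, and Ighg1 at 24.5, 118 and 5.99 TPM against at most 0.712 TPM; immunoglobulin genes are near-identical copies of each other and their values are uncertain. MHC class II genes were lower in 3 of 8 cases, Cd74 (-0.78 ± 0.20), H2-Ab1 (-0.80 ± 0.21) and H2-DMa (-0.56 ± 0.15), against 2 without knockout library 5 and 5 with it alone. Of 23 interferon-stimulated genes Oasl2 and Ifit1 were higher (1.14 ± 0.18 and 1.03 ± 0.19), a share close to the 7.22% of all genes. Of 28 chemokine and receptor genes 6 were higher (5 without knockout library 5 and 2 with it alone), led by the endothelial scavenger receptor Ackr1 (85.5, 116 and 129 TPM against 32.8, 31.3, 21 and 38.3 TPM), and Ccl21a, the lymphatic chemokine, was lower (-2.18 ± 0.42).

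Collagens and other matrix genes were lower. Of 16 fibrillar and other fibroblast collagens 11 were called lower and none higher (median -1.54; 10 without knockout library 5 and 9 with it alone). Col1a1, the main chain of type I collagen, stood at 10.9, 18.3 and 14.1 TPM in knockout and 96.3, 62.7, 65.3 and 62.3 TPM in flox libraries and had a log2 fold change of -2.19 ± 0.28. Col6a2, a chain of the beaded filaments around cells, stood at 1.54, 2.99 and 2.95 TPM against 19.8, 11.8, 10.6 and 21.5 TPM. In both genes the lowest value was in knockout library 5 and no groups overlapped. Of 16 basement membrane genes 8 were lower and none higher, among them Col4a1 and Col4a2, the main type IV chains (-1.38 ± 0.25 and -1.62 ± 0.26), the linker Nid1 (-0.86 ± 0.16) and the laminin chains Lama4, Lamb2 and Lamc1. The number called lower was 5 without knockout library 5 and 6 with it alone. Of 32 elastic fibre, proteoglycan and matricellular genes 7 were lower in all, 9 without knockout library 5 and 17 with it alone, so the extent of this fall depended on the library. The microfibril gene Mfap4 stood at 0.484, 0.185 and 0.115 TPM against 14.4, 7.31, 7.95 and 9.32 TPM, a log2 fold change of -5.26 ± 0.48. Ogn, osteoglycin, went against the list and stood at 129, 327 and 363 TPM against 58.9, 69.98, 112 and 109.7 TPM, higher by 1.81 ± 0.37, and was not called with knockout library 5 alone.

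Of 18 insulin-like growth factor and Wnt modulator genes 8 were lower (6 without knockout library 5 and 9 with it alone) and Igf1r, the receptor of IGF1, was higher (1.31 ± 0.31). Igf1 itself stood at 8.24, 16.3 and 13.6 TPM in knockout and 62.5, 34.9, 31.4 and 31.4 TPM in flox libraries. Igf2 stood at 4.11, 20.5 and 14.6 TPM against 94.8, 45.1, 45.3 and 96.5 TPM, lowest in knockout library 5. The Wnt antagonists Frzb and Sfrp1 were lower, with log2 fold changes of -1.30 ± 0.19 and -2.12 ± 0.34. Of 11 tested cartilage and bone genes Sox9 (-1.10 ± 0.18), Chad (-2.22 ± 0.45) and Col2a1 (-3.75 ± 0.86) were lower and Runx2, a bone transcription factor, higher (1.16 ± 0.26). Of 18 endothelial and mural genes only the angiopoietin receptor Tek was called (0.78 ± 0.19), against 13.2% of all genes.

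Glial lists differed from each other. Of 18 myelin and Schwann cell genes 9 were called lower and none higher (median -0.76; 7 without knockout library 5 and 8 with it alone). Prx, periaxin, a scaffold protein of myelinating Schwann cells, stood at 13.4, 15.3 and 21.3 TPM in knockout and 56.5, 46.7, 49.8 and 63.3 TPM in flox libraries. The groups were apart, with knockout library 5 lowest, and the log2 fold change was -1.54 ± 0.21. Sox10, the transcription factor of Schwann cells and satellite glia, had a log2 fold change of -1.10 ± 0.21. Among 14 satellite glia genes Fabp7 was higher, at 1687, 2462 and 2936 TPM against 981, 930.3, 419.6 and 437 TPM (1.92 ± 0.36), and Plekhb1 was lower. These calls lie close to the 13.2% of all genes called in either direction. The list median was -0.09, and it was 0.02 without knockout library 5 and -0.27 with it alone. Of 9 perineurial and barrier genes Lypd2 (-2.04 ± 0.41), Itgb4 (-0.97 ± 0.23) and Tenm2 (-1.03 ± 0.26) were lower.

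Mitochondrially and nuclear-encoded respiratory chain genes were counted separately. Of the 13 mitochondrially encoded genes 9 were lower and none higher (median -0.69; 7 without knockout library 5 and 6 with it alone). mt-Nd1, a subunit of complex I, stood at 3419, 3495 and 3742 TPM in knockout and 6525, 6926, 7761 and 6395 TPM in flox libraries and had a log2 fold change of -0.82 ± 0.14. In batch 1 the median of the 13 mitochondrially encoded genes was -0.16, and none of them was called. Of 25 nuclear-encoded subunits, Cox7b (1.45 ± 0.24), Ndufs4 (0.91 ± 0.17), Ndufa4 (1.07 ± 0.21) and Cox6c (0.97 ± 0.23) were higher and none was lower, while the median was -0.01. Ndufa4 stood at 6485, 9103 and 10418 TPM against 5167, 4477, 4335 and 4376 TPM. None of these 4 was called with knockout library 5 alone, where their log2 fold changes were 0.64, 0.41, 0.46 and 0.26.

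Enzymes of retinoic acid, serotonin and histamine metabolism were described singly. Cyp26a1, which degrades retinoic acid, stood at 51.6, 38 and 40.4 TPM in knockout libraries; 3 flox libraries held no count and flox library 6 held 0.168 TPM. The fitted log2 fold change of 10.02 ± 0.57 rests on these few flox counts. Its relative Cyp26b1 went the other way (-1.67 ± 0.40), as did the retinoid receptors Rarg (-1.33 ± 0.21) and Rxrb (-0.62 ± 0.16). Tph1, which starts serotonin synthesis in peripheral tissues, was at 17.5, 10.3 and 13.1 TPM against 0, 0.314, 0.406 and 0.164 TPM. Hdc, which makes histamine, rose by 2.87 ± 0.49, and Hal, which degrades histidine, was lower (-4.32 ± 0.82). Hdc is also among 7 tested mast cell and basophil genes, of which it was the 1 called higher. Cma1 was the 1 called lower (-2.88 ± 0.81). Cpa3 (-2.46 ± 0.79) and Mcpt4 (-2.77 ± 0.98) were lower without overlap but were not called. The groups did not overlap for 1 gene of this list that was higher and 3 that were lower, so its median of 0.02 stands for a split list. The metalloreductase Steap1 stood at 70.8, 42.3 and 40.4 TPM against 4.95, 7.38, 10.3 and 5.69 TPM. Of 21 cholesterol synthesis genes 2 were higher and 2 lower, with a median of 0.04, against 13.2% of all genes called in either direction.

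Circadian genes keep daily time through transcription factors that act on E-boxes (CACGTG) and D-boxes (TTATGTAA). Of 19 genes 4 were lower and 1 higher. The output factor Dbp stood at 2.19, 2.44 and 1.31 TPM in knockout and 7.62, 11.8, 15.5 and 13.9 TPM in flox libraries, a log2 fold change of -2.49 ± 0.31. The repressor Nr1d1 stood at 9.36, 8.71 and 10.6 TPM against 20.9, 26, 23.4 and 27.8 TPM. Both lay apart without overlap. Hlf (-1.26 ± 0.34) and Tef (-0.63 ± 0.18), relatives of Dbp, were lower and Bhlhe41, an E-box repressor, was higher (366, 179.8 and 183 TPM against 116, 130.1, 148 and 165 TPM). Without knockout library 5, Hlf and Tef were not called. The labels give no hour of tissue collection.

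Of these called genes, 2 have a promoter with an E-box, shown in capitals within the 250 bases before each RefSeq start on GRCm38.p6. Bhlhe41 (chr6:145865421-145865670, minus strand) has 1 E-box that begins 153 bases before the start. Tef has 2 listed starts (chr15:81802423-81802672, plus strand and chr15:81811164-81811413, plus strand), each with 1 E-box, 127 and 138 bases before it.
Bhlhe41: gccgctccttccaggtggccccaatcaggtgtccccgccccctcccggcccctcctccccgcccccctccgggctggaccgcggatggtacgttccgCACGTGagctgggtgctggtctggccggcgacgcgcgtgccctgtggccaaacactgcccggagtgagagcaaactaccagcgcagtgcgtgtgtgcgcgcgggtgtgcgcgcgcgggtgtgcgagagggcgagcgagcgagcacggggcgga
Tef, first start: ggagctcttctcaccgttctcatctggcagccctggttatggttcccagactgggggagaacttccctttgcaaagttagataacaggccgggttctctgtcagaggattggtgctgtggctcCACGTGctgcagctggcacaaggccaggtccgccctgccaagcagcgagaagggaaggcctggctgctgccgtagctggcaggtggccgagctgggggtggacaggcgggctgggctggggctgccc
Tef, second start: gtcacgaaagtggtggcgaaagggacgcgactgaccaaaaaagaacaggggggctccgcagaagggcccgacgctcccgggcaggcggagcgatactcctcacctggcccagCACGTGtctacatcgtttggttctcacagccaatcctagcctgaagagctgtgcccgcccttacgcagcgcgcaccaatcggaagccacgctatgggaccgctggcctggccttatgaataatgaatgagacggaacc
Of 21 promoters of the 16 listed clock genes found in the table, 6 held an E-box, against 6.02% of all 32851 promoters, and 1 (Per3) held a D-box on either strand, against 0.819%. The E-box reads the same on both strands. The genes with an E-box were Bhlhe41, Ciart, Cry1, Per1 and Tef, so they included a gene that rose, a gene that fell and 3 that were not called.

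Markers of neighbouring tissues were uneven between libraries. The 13 skeletal muscle genes summed to 103.8, 128.1 and 805.4 TPM in knockout and to 1385, 1748, 5795 and 127.3 TPM in flox libraries, which overlap. Of the 10 genes with the largest falls, Actc1, Myh2 and Asb11 are muscle genes. Actc1 was listed at 0 counts in the knockout libraries and was at least 104.3-fold lower against 3 counts over that group. The part of muscle tissue in these 3 falls was not tested. Adipocyte genes summed to 125 to 326 TPM in knockout and 151 to 605 TPM in flox libraries, and Scd1 was called higher (0.46 ± 0.12) among 11. Spinal cord and central glia genes summed to 47.4 to 95.4 TPM in knockout and 46.9 to 131 TPM in flox libraries, with none of 9 called in edgeR or limma-voom, 2 at an unadjusted p under 0.05 and 1 called in DESeq2. Epidermal genes summed to 15.3 to 22.1 TPM in knockout and 21.5 to 68.4 TPM in flox libraries; Krt14, a basal keratin, was higher (3.14 ± 0.64) and Krtdap lower (-3.38 ± 0.78) among 6 tested. No posterior Hox gene of 13, markers of the body level of a ganglion, was called in edgeR, DESeq2 or limma-voom, and 0 had an unadjusted p under 0.05, but 2 were lower with knockout library 5 alone in edgeR. Without knockout library 5, the calls of Tek, Plekhb1, Scd1, Myh2, Asb11, Jund, Hspa5 and Ptpn11 were lost, with adjusted p-values from 0.0558 to 0.11 in edgeR.

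The remaining genes named by size, p-value or level are as follows. Serpina1a and Serpina1c, protease inhibitors of a cluster of near-identical copies, were listed at 0 counts in flox and were at least 340.4-fold and 170.2-fold higher against 3 counts over the flox group. The same lower bound was 223.4-fold for the integrin chain Itgb2l, 48.3-fold for Spink8, 36.3-fold for Ighv1-53 and 31.4-fold for Ighv10-1. Igkv12-46 held 153 counts against 1. Fam210b, a mitochondrial membrane protein, stood at 52.6, 30.5 and 33.8 TPM in knockout and 3.48, 4.42, 4.62 and 4.83 TPM in flox libraries, with an adjusted p of 2.15e-05 in edgeR; its p-value was the lowest of all genes. Skp1, a subunit of ubiquitin ligases, stood at 5049.6, 3431 and 3408 TPM against 1766, 1957, 1655 and 1582 TPM. Atp5mk, a small subunit of ATP synthase, and the predicted gene Gm10221 were the other abundant genes that rose (1.21 ± 0.26 and 1.33 ± 0.24).

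Among the falls, Otoa, otoancorin, stood at 1.31, 0.744 and 0.215 TPM in knockout and 14, 19.7, 15.4 and 15.2 TPM in flox libraries, a log2 fold change of -4.33 ± 0.43. Rgs10, a regulator of G protein signalling, stood at 323, 252 and 267 TPM against 833, 891, 688 and 848 TPM, and the metalloprotease Mmp15 at 3.02, 2.46 and 2.26 TPM against 9.39, 9.55, 9.11 and 11.9 TPM. All 3 differed without overlap. Serpina11, in the same cluster as Serpina1a, was lower in all 3 knockout libraries (-5.12 ± 0.66). Slc38a8, an amino acid transporter, held 2 counts against 288, a ratio of 96.5 (95% counting interval 26.5 to 800.3), and Erdr1y 2 against 482. The predicted gene Gm15387 was listed at 0 counts in knockout and was at least 511-fold lower against 3 counts over that group. The most abundant falling genes were Sncg, gamma-synuclein (-0.53 ± 0.13), mt-Nd1, mt-Co1, the myelin protein Mbp (-0.85 ± 0.18) and the actin-severing protein Gsn (-0.98 ± 0.25).

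Batch 1 gave a second set of libraries, 4 knockout and 3 flox, none shared with batch 2. Its libraries were less alike in depth, with 12119749 to 14718779 estimated counts in knockout and 46931233 to 52085535 in flox. It called 273 of 15140 genes (1.8%). Of the higher calls of batch 2 tested in batch 1, 81.4% had the same sign there, and of the lower calls 81.1%, against 66.4% of all 14872 genes tested in both. The median log2 fold change of the higher calls was 1.04 in batch 2 and 0.33 in batch 1, and of the lower calls -1.07 and -0.33; the first value of each pair comes from the libraries that chose the genes. A direct test of the difference between batches (the genotype by batch interaction over 14 libraries) called 155 of 16785 genes (0.923%), 104 with a higher and 51 with a lower genotype difference in batch 2. Without knockout libraries 6 and 7 the interaction called 21 genes.

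**Figure D4:**
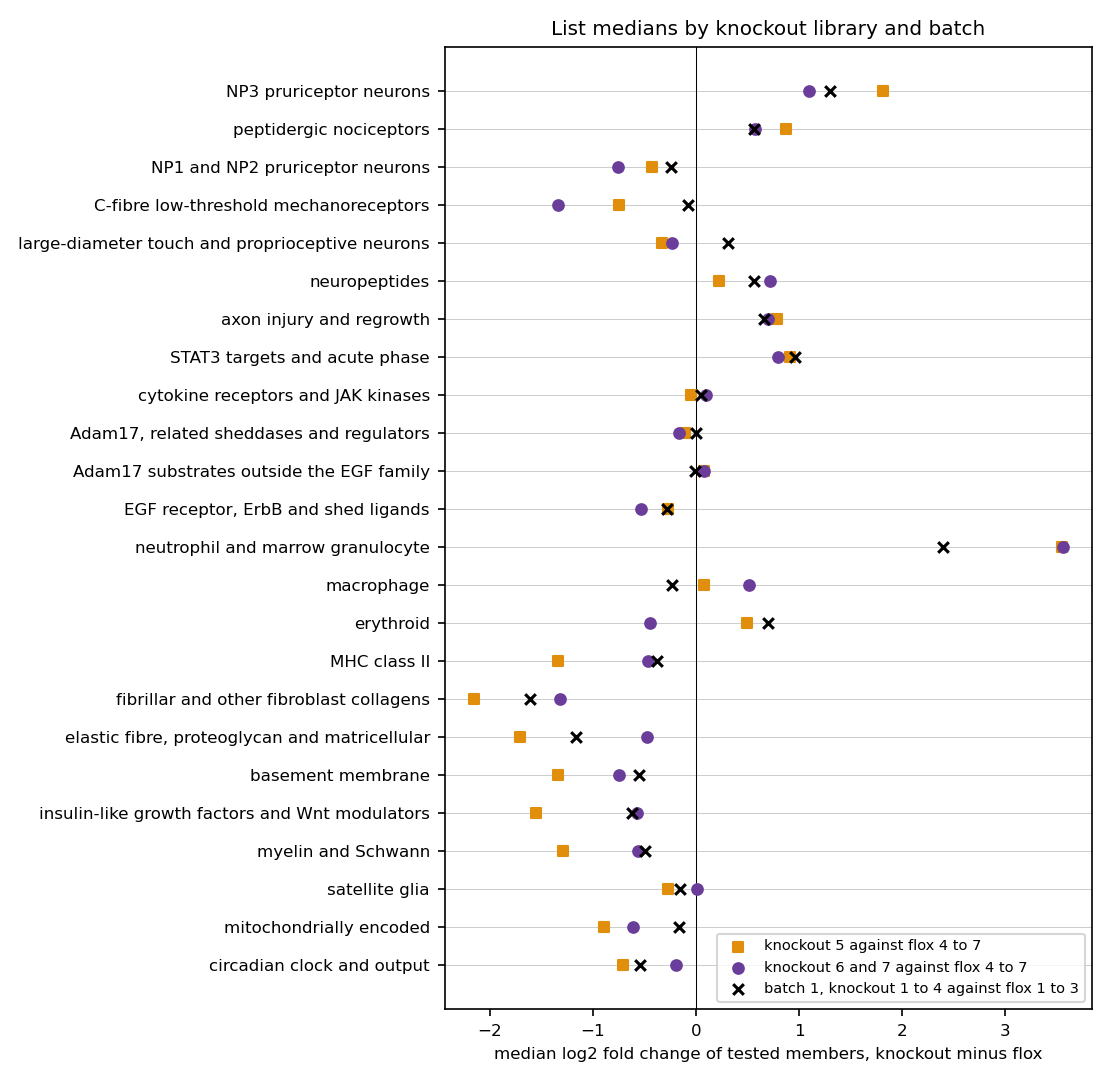
For 24 gene lists, symbols give the median log2 fold change of the tested members for knockout library 5 (squares), for knockout libraries 6 and 7 (circles), each against the 4 flox libraries of batch 2, and for batch 1 (crosses). The neutrophil, NP3, axon injury and STAT3 medians lie above zero in all 3 sets and those of collagens, basement membrane and myelin below, while the macrophage and large-diameter neuron medians change side in batch 1.

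The genes with the lowest interaction p-values on the higher side had positive differences in batch 2 and differences near or below zero in batch 1. Pfdn4, a subunit of the prefoldin chaperone, stood at 559, 937 and 1165 TPM in knockout and 114, 101, 88.6 and 96.6 TPM in flox libraries of batch 2, while its log2 fold change in batch 1 was 0.09 (interaction 3.17 ± 0.32, adjusted p = 0.000355). Rbis, a ribosome biogenesis factor, stood at 2244, 3912 and 4332 TPM against 565, 447, 459 and 516 TPM, with 0.08 in batch 1. Both were higher in knockout libraries 6 and 7 than in library 5, and all 3 were above every flox library. Fam219b, the exchanger Slc24a5 and the centromere protein Itgb3bp were the others named by this rule, with interaction values of 2.42 ± 0.25, adjusted p = 0.00038, 1.89 ± 0.20, adjusted p = 0.000408, and 2.27 ± 0.29, adjusted p = 0.00269. Adam10 also had a called interaction (1.23 ± 0.23, adjusted p = 0.0239), with -0.14 in batch 1. So did Nts (1.82 ± 0.37, adjusted p = 0.0291) and Ogn (2.55 ± 0.52, adjusted p = 0.0333), at 0.80 and -0.77 in batch 1. On the lower side stood Gm15387, Serpina11, Rbm15b and 2 genes, Gm7334 and Otop1, that were higher in knockout in batch 1 and not called in batch 2.

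The calls of batch 2 were also counted by position. The 10 Mb window with the highest share of calls, chosen after its values were seen, was chr2:170000001-180000000, where 33 of 75 tested genes were called (44%), 29 higher and 4 lower. Pfdn4 and Fam210b, both named above, are among the higher calls of this window and lie outside the gene cluster described next. The next window, on chromosome 6, had 35%, and single chromosomes had 9.71% to 15.8% apart from the mitochondrial genome. Most of these calls lay in a cluster of 42 tested genes between 175010241 and 178078476, of which 8 carry Zfp (zinc finger protein) symbols and 33 are predicted genes. There 26 were called higher and none lower, with a median log2 fold change of 1.54 in batch 2 and -0.03 in batch 1, where none of 36 was called in edgeR and 0 had an unadjusted p under 0.05. The interaction was called for 16 of the 42. Summed over the cluster, levels were 2968, 4250 and 5974 TPM in knockout libraries 5, 6 and 7 and 961 to 1020 TPM in the flox libraries of batch 2, and 632 to 1158 TPM in knockout and 576 to 769 TPM in flox libraries of batch 1. Zfp971 stood at 206, 295 and 424 TPM in knockout and 58.7, 42.7, 39.6 and 46.7 TPM in flox libraries and rose by 2.86 ± 0.29, and Zfp931 rose by 2.28 ± 0.24. Genes of this cluster are close copies of each other, so reads can be shared between them and the value of any 1 of them is uncertain. Within 20 Mb of Adam17 on chromosome 12, 15 of 137 genes were called (10.9%), below the 13.2% of all genes.

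**Figure D5:**
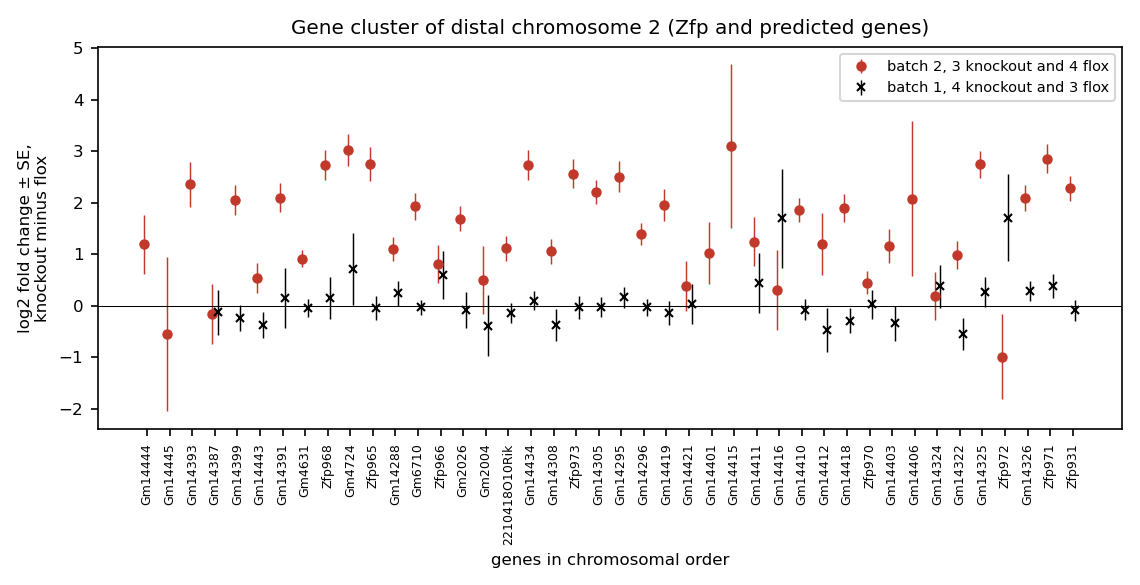
For the 42 tested genes of the chromosome 2 cluster, in chromosomal order, red points give the log2 fold change (knockout minus flox) with its SE in batch 2 and black crosses the same in batch 1 where tested. Most red points lie between 1 and 3 while the crosses lie around zero.

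Summed exon length was compared between the sets of calls as a description. The median summed exon length in GENCODE M21 was 4118 bases for higher calls, 4978 for lower calls and 4269 for all genes tested, with a length for 95.5%, 97.8% and 96.5% of these genes. Genes with a higher difference in batch 2 by the interaction had a median of 3042 bases over 99 genes. In the shortest 3807 genes the median log2 fold change was -0.17 for knockout library 5 and 0.01 for libraries 6 and 7, and in the longest 3806 genes 0.03 and -0.11. No test was made of these lengths.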

How the data were processed

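Bulk RNA of mouse DRG was sequenced, and the authors deposited, per the file headers, a table of estimated counts and a table of TPM per gene, made with kallisto per the submitters' processing notes (neither its version nor a strand setting is given in the sources used here). The estimated counts (expected counts) deposited by the authors were rounded to whole numbers. The TPM values deposited by the authors are used for levels by library. A row without a gene name (0.108% to 0.186% of counts in batch 2) was left out, and 0 columns of samples were unmatched. A few listed genes were not analysed here.

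Groups came from the labels. Genes passing filterByExpr (minimum count 10, minimum total 15) were normalised by TMM and tested with edgeR 4.0.16 (robust quasi-likelihood, R 4.3.3) on the 7 batch 2 libraries, with Benjamini-Hochberg adjustment over all genes tested and a threshold of 0.05. The standard error is the size of the log2 fold change divided by the square root of F. The interaction was fitted over 14 libraries. Alternatives used DESeq2 1.42.0 and limma 3.58.1, on counts or on log2(TPM + 1) and log2(TPM + 0.1), other filters and scalings, a replicate block, a Y-linked term and left-out libraries. On simulated counts with 3 against 4 libraries, over 15464 genes, the edgeR step recovered 35% of 2-fold and 83% of 4-fold changes, with 4 false calls. In it 100 genes were changed by each fold, far fewer than the 2085 called here, so the recovery need not hold for these data. Named genes are Adam17 and Nppb; in each direction the 10 largest changes among calls whose higher group averages 1 TPM or more, with no overlap and an official symbol, the 5 lowest p-values, the 5 most abundant calls and the 5 lowest interaction p-values; and up to 4 tested members of each list, lowest p first. Further list members and the genes named by position or promoter were chosen after their values were seen. The members and lists were chosen with earlier results of these data known. Promoters are RefSeq sequences (GRCm38.p6) and coordinates and exon lengths are from GENCODE M21 (GRCm38). A few genes that the rule names are not reported here.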

Additional observations from a re-analysis of the deposited data

Results flagged for a closer look

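The genotype difference was not the same in both batches for 25 of the genes named above, by the interaction test of edgeR (adjusted p under 0.05 over 16785 genes). Higher in batch 2 than in batch 1, with the difference in log2 fold change in brackets, were Serpina1a (11.93), Itgb2l (7.49), Itgam (6.64), Ighg2b (6.43), Pfdn4 (3.17), Rbis (2.73), Ogn (2.55), Zfp971 (2.44), Fam219b (2.42), Zfp931 (2.33), Itgb3bp (2.27), Slc24a5 (1.89), Nts (1.82), Ifit1 (1.73), Cox7b (1.43) and Adam10 (1.23). Lower in batch 2 were Gm15387 (-12.10), Actc1 (-9.34), Otop1 (-8.89), Erdr1y (-8.28), Serpina11 (-5.46), Gm7334 (-4.10), Sfrp1 (-2.09), Rbm15b (-1.83) and Mmp15 (-1.54). For Serpina1a, Itgb2l, Itgam, Ighg2b, Actc1, Erdr1y, Gm15387, Serpina11 and Otop1 a group of either batch holds few or no counts, so the size is no bound. The batches also differed in mitochondrial share (0.734% to 1.76% in batch 2, 8.21% to 10.9% in batch 1) and in depth, and the part of either in these differences was not tested.

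Among the 4 flox libraries, 1 library lay far from the other 3 for 14 of 194 genes examined in this way (Dixon test), where chance gives about 1 in 20. In flox library 4 these were Col1a1 at 96.3 TPM, Gfra3 at 13.1 TPM, Igf1 at 62.5 TPM, Ighg1 at 0.712 TPM and Ndufa4 at 5167 TPM. In flox library 5 these were Dnaja1 at 975 TPM and Sprr1a at 0.175 TPM. In flox library 6 these were Cyp26a1 at 0.168 TPM, Igkv12-46 at 0.256 TPM, Kcnc4 at 5.99 TPM, Myh2 at 3.86 TPM, Necab2 at 5.04 TPM and Socs2 at 25.6 TPM. In flox library 7 this was Mmp15 at 11.9 TPM. For Sprr1a, Cyp26a1 and Igkv12-46 the other 3 flox libraries are listed at or near 0, so any count in the fourth meets the rule by construction and these 3 do not count against the rate of chance.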

How the results depend on the processing

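The number of genes called was 2085. It was 3316 with the DESeq2 test and 1003 without knockout libraries 6 and 7, and leaving out 1 library at a time gave 1036 to 1848. For the interaction (155 genes) it was 719 with the DESeq2 test, 21 without knockout libraries 6 and 7, and 40 (without knockout library 7) to 420 (without knockout library 5) when 1 library at a time was left out. Nppb kept its direction under every alternative run; its call was lost without knockout libraries 6 and 7 (1.30), and leaving out 1 library gave 1.56 to 2.11. Adam17 was not called under any alternative run and changed sign with the Y-linked term (-0.13), without knockout libraries 6 and 7 (-0.13), and without knockout library 7 (-0.093) or flox library 5 (-0.06), and leaving out 1 library gave -0.093 to 0.23. Cry1, Per1 and Ptgds, not called, also changed sign: Cry1 was 0.016 with limma-voom and -0.26 to 0.10 without 1 library, Per1 -0.55 to 0.087 and Ptgds -1.09 to 0.13. The cause was not tested. On log2(TPM + 1), 847 genes were higher and 1410 lower, and on log2(TPM + 0.1) 807 and 1407, with the median of all genes at -0.11 and -0.13.

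Replicate numbers are shared by libraries 5 to 7, but the labels do not say that a number marks a shared source. Same-numbered libraries deviated together by 0.27, 0.07 and -0.10 (correlations), and knockout libraries 6 and 7 correlated best with flox libraries 7 and 6 (0.085 and 0.17), so the numbers were not taken to pair the samples. With a replicate block over these 6 libraries 1918 genes were called, Nppb at 2.06 and Adam17 at 0.24. The same 6 libraries without the block, added after seeing the data, gave 1296 calls.

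At this number of libraries the simulated recovery of 2-fold changes was 35%, in a simulation that changed far fewer genes than were called here. A gene without a call is not shown to be equal between the groups.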
